A study of Mus musculus with 16 samples.

Results

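The pyruvate dehydrogenase complex of mitochondria, its kinases and its phosphatases were followed in the livers of mice with a liver knockout of Matr3, which encodes the RNA-binding protein matrin-3, and of their floxed controls. The set held 10 genes of the 23167 gene identifiers that the male and the female count table shared: the kinases Pdk1, Pdk2, Pdk3 and Pdk4, the complex subunits Pdha1, Pdhb, Dlat and Pdhx, and the phosphatases Pdp1 and Pdp2. The set was built around Pdk1, which had the smallest p of all genes for a knockout effect that differed between the sexes, and the other 9 genes were added because they belong to the same enzyme system. The values of Pdk1 within each sex and the difference of its effects are therefore given as a description with no test. The next genes in that ranking were C8b, with a difference of 1.70 (SE 0.19, log2 scale), and Sorbs3, with 0.83 (SE 0.10), against -1.23 (SE 0.12) for Pdk1. All 10 genes passed the filter on low counts in every fit.

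Every mouse carried floxed Matr3 alleles. Controls are labelled floxed, and their littermates with a liver knockout (LKO) came from a cross to mice with Cre recombinase under the albumin promoter, which is active in hepatocytes. Males and females of both genotypes were fed for 16 weeks, starting at the age of 7 weeks, on a diet in which fat supplied 60% of the energy, and livers were taken after a 12 hour fast. Poly(A) RNA was sequenced from 4 mice in each group of sex and genotype. There was 1 library per mouse, and no group on another diet was analysed here.

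Pyruvate dehydrogenase turns pyruvate from glycolysis into acetyl-CoA for the citric acid cycle and fatty acid synthesis. The kinases phosphorylate its E1 alpha subunit and switch the complex off, and the phosphatases switch it back on. In the liver, fasting is known to raise Pdk4 through PPAR alpha, FOXO1 and glucocorticoids and insulin lowers it, Pdk2 is the common kinase of the fed liver, and Pdk1 is known as a target of the hypoxia factor HIF-1.

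The libraries held between 30495505 and 36496193 counts. Matr3 fell to 61.3% of the floxed mean in LKO males and to 65.5% in LKO females, and every LKO library lay below every floxed library of its sex (exact permutation p = 0.0286 in each sex, two-sided, the smallest that 70 regroupings allow). The sex-specific transcripts fitted the labelled sex in all 16 libraries. On the first principal component of the female libraries, female floxed 4 (-10.9) and female LKO 7 (6.88) lay nearest to the other genotype, where the remaining floxed females ran from -40.2 to -33.8 and their LKO counterparts from 32.2 to 42.3. Their Matr3 levels fitted their labels, 59.9 CPM (counts scaled by TMM to a common library size) in female floxed 4 and 37.6 CPM in female LKO 7. Male floxed 1 and 2 carry code numbers in their labels that lie apart from those of the other libraries. What these codes stand for is not given in the sources used here. Results that rest on these libraries are given with and without them. Female floxed 4 and female LKO 7 were picked for lying near the other genotype, so leaving them out favours calls in females over all genes.

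The promoters of Pdk1, Pdk2 and Pdk4, the 3 kinases with more than trace levels in these livers, are printed here as RefSeq gives them (GRCm38.p6), 5′ to 3′ on the strand of the gene up to the annotated start and without bases annotated as exon. Of the 10 genes, 9 matched a RefSeq promoter, with 11 windows, and Pdp1 did not. Pdk1 and Pdk2 each have a second window, not printed here, with 0 matches to the motifs below. For Pdk4 the last 31 bases before the RefSeq start are annotated as exon and are left out of the print, and distances are counted from the RefSeq start. Capitals mark matches on either strand to 6 motifs. The core to which HIF-1 binds was searched as ACGTG, and with another first base as GCGTG. The E-box was searched as CACGTG and contains the first of these. A nuclear receptor half-site was searched as AGGTCA, and a forkhead site as GTAAACA. The last was the CCAAT box, which appears as ATTGG where it lies on the other strand.
Pdk1 promoter, chr2:71872974-71873223, plus strand: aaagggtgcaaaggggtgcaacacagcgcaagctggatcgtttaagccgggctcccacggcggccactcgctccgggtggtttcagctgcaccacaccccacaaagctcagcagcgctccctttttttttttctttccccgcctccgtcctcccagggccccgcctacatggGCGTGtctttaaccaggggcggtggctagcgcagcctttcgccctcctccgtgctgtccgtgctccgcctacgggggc
Pdk2 promoter, chr11:95041372-95041621, minus strand: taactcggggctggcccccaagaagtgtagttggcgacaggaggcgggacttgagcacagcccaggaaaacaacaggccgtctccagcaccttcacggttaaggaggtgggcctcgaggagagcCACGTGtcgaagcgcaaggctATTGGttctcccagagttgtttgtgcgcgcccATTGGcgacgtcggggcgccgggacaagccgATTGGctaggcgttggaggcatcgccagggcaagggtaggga
Pdk4 promoter, chr6:5496310-5496528, minus strand: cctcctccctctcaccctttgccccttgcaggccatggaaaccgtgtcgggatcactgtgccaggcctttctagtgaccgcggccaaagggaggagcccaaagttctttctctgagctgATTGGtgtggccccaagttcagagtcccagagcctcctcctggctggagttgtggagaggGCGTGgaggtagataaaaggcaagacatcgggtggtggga

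The Pdk1 window held GCGTG once, with its first base 78 bases before the start. The Pdk2 window held CACGTG 126 bases before the start and ATTGG at 105, 73 and 42 bases. In the Pdk4 window GCGTG began 71 bases and ATTGG 131 bases before the start. Over the 11 windows of 250 bases, ACGTG occurred in 4, GCGTG in 6, CACGTG in 2 and CCAAT in 5, and AGGTCA and GTAAACA in 0. The share of all 32851 RefSeq windows of that length with a match was 16.6% for ACGTG, 28.2% for GCGTG, 6.02% for CACGTG, 14% for AGGTCA, 3.17% for GTAAACA and 33.8% for CCAAT. These are matches of letters in a window, and binding was not measured.

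Pdk1 (ENSMUSG00000006494; mm10 chromosome 2, 71873224 to 71903858, plus strand) was higher in LKO than in floxed males and lower in LKO than in floxed females. In floxed males 1 to 4 it measured 84.5, 80.4, 96.6 and 92.1 CPM, and in LKO males 5 to 8 it measured 125, 130, 130 and 127 CPM. In floxed females 1 to 4 it measured 116, 104, 94.9 and 96.1 CPM, and in LKO females 5 to 8 it measured 60.4, 56.4, 71.1 and 66.8 CPM. The groups of a sex did not overlap in either sex, the LKO males were the highest of the 4 groups and the LKO females the lowest. Over all genes 7.84% had groups that did not overlap in males and 15.6% in females. The choice of Pdk1 used these values, so its lack of overlap is a description. The means were 88.4 ± 7.28 and 128 ± 2.42 CPM in floxed and LKO males and 103 ± 9.75 and 63.6 ± 6.54 CPM in floxed and LKO females (SD, n = 4 each). These correspond to a log2 fold change of 0.53 (SE 0.07) in males and -0.69 (SE 0.10) in females.

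Leaving out any 1 library kept the log2 fold change of Pdk1 between 0.49 and 0.58 in males and between -0.75 and -0.63 in females. Without male floxed 1 and 2 it was 0.44 (SE 0.06) in males. Without female floxed 4 and female LKO 7 it was -0.78 (SE 0.10) in females. The level in female LKO 7, 71.1 CPM, was the highest of the LKO females and remained below the lowest floxed female. In bulk tissue fewer cells of a type and less RNA per cell cannot be told apart.

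**Figure D1:**
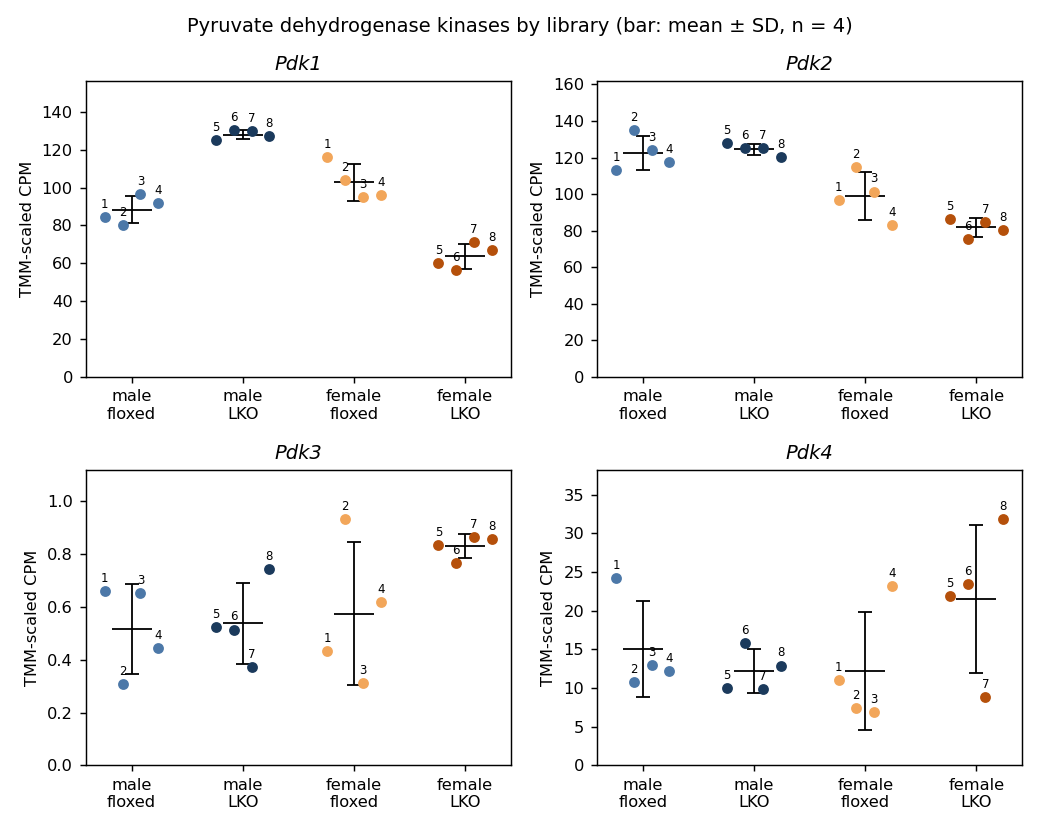
TMM-scaled CPM of the 4 pyruvate dehydrogenase kinases in each library (points, labelled with the replicate number), with the mean and SD of each group (bars, n = 4). Pdk1 lies between 125 and 130 CPM in LKO males and between 56.4 and 71.1 CPM in LKO females, outside the range of the floxed libraries of the same sex, and the groups of a sex overlap for Pdk2, Pdk3 and Pdk4.

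The 6 endothelial markers, all with counts in every group, summed to between 124 and 175 CPM in floxed males, 163 and 185 in LKO males, 151 and 167 in floxed females and 116 and 139 in LKO females. In females 4 of the 6 were lower in LKO livers by the edgeR test, with a median log2 fold change of -0.65. In males 0 were called, with a median of 0.25 and overlapping sums. Of all genes 4.85% were called lower and 4.44% higher in LKO females, and 1.04% were called in males. Of the 6 stellate cell and fibroblast markers 2 fell in females (median log2 fold change -0.47), of 5 cholangiocyte markers 1 fell (-0.31), and of 10 macrophage and leukocyte markers 1 rose (0.21). In males 0 of each of these lists were called. The 8 hepatocyte markers, all with counts, identified every library as liver and summed to between 74178 and 94998 CPM in floxed males, 80437 and 92822 in LKO males, 69267 and 80433 in floxed females and 39181 and 60400 in LKO females. Of these, 2 rose and 2 fell in females. The 7 adipocyte markers summed to between 36.6 and 65.9 CPM in floxed and 115 and 140 CPM in LKO males, with Lep at 0 in both male groups. In females they summed to at most 26.4 CPM. By the edgeR test 0 of the 3 adipocyte markers tested in males were called. The part of these cell types in the level of Pdk1 was not tested.

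Pdk2 (ENSMUSG00000038967; chromosome 11, 95026258 to 95041354, minus strand), the most abundant of the kinases per exon length, had like means in males and a lower mean in LKO females, and passed the test in neither sex. Floxed males measured 113, 135, 124 and 117 CPM and LKO males 128, 125, 125 and 120 CPM, and the ranges overlapped. Floxed females measured 97.0, 115, 101 and 82.8 CPM and LKO females 86.4, 75.3, 84.8 and 80.3 CPM, with only female floxed 4 inside the LKO range. The log2 fold change was 0.03 (SE 0.06, edgeR adjusted p = 0.929) in males and -0.28 (SE 0.10, edgeR adjusted p = 0.106) in females. Without female floxed 4 it passed the test in females at -0.35 (SE 0.09, edgeR adjusted p = 0.0345), without female floxed 4 and female LKO 7 together at -0.37 (SE 0.10, edgeR adjusted p = 0.0309), and in the fit of 16 libraries at -0.28 (SE 0.09, edgeR adjusted p = 0.0351).

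Pdk4 (ENSMUSG00000019577; chromosome 6, 5483351 to 5496309, minus strand), the kinase induced by fasting, spread more within groups than any other of the 10 genes. Floxed females 1 to 4 measured 11.04, 7.40, 6.92 and 23.3 CPM, and LKO females 5 to 8 measured 21.9, 23.5, 8.79 and 31.9 CPM. The high floxed female and the low LKO female were numbers 4 and 7, the libraries that lay nearest to the other genotype over all genes. With all libraries the log2 fold change in females was 0.82 (SE 0.44, edgeR adjusted p = 0.254). Without those libraries it was 1.61 (SE 0.21, edgeR adjusted p = 0.0016), and without female floxed 4 alone 1.35 (SE 0.37, edgeR adjusted p = 0.0456). Leaving out libraries picked in this way favours a call. The share of all genes called was 9.29% with all libraries, 19.6% without the pair and 12.9% without female floxed 4 alone.

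In floxed males Pdk4 measured 24.3, 10.8, 13.04 and 12.2 CPM and in LKO males 10.02, 15.9, 9.93 and 12.9 CPM. Male floxed 1 stood above all other males and the rest of the ranges overlapped. The log2 fold change was -0.31 (SE 0.25, edgeR adjusted p = 0.682), and 0.02 (SE 0.16, edgeR adjusted p = 0.975) without male floxed 1.

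Pdk3 (ENSMUSG00000035232; X chromosome, 93764607 to 93832201, minus strand) was near the limit of detection in all groups. Its raw counts ran from 10 to 32 per library, which was 0.308 to 0.932 CPM. The log2 fold change was 0.06 (SE 0.32, edgeR adjusted p = 0.971) in males and 0.52 (SE 0.32, edgeR adjusted p = 0.322) in females, and a difference of this size was not detectable at these counts.

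Since transcripts differ in length, the make-up of the kinases was compared as RPKM, the CPM divided by the summed exon length in kilobases. Pdk2 made up 70.9 ± 3.85% of the summed RPKM of the 4 kinases in floxed males, 66.2 ± 1.41% in LKO males, 64.8 ± 5.70% in floxed females and 64.0 ± 4.50% in LKO females (SD, n = 4 each). Pdk1 came second, with 20.8 ± 1.94%, 27.7 ± 0.53%, 27.4 ± 2.16% and 20.3 ± 2.25% in the same order of groups. Pdk4 made up 7.90 ± 3.34%, 5.82 ± 1.28%, 7.33 ± 4.96% and 14.99 ± 6.19%, and Pdk3 at most 0.870% in any library. The order Pdk2, Pdk1, Pdk4, Pdk3 held in the means of all 4 groups, and in female LKO livers the ranges of Pdk1 (18.6 to 23.6%) and Pdk4 (6.45 to 20.9%) overlapped.

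The RPKM of Pdk1 divided by that of Pdk2 within a library removes any scaling between libraries. It ran from 0.242 to 0.319 in floxed males and from 0.398 to 0.429 in LKO males. In females it ran from 0.369 to 0.487 in floxed and from 0.284 to 0.341 in LKO livers. The groups of a sex did not overlap, with the LKO libraries on the high side in males and on the low side in females. Pdk1 was chosen by the difference of its effects, so the ratio describes the same values again and is no separate support. The summed RPKM of the 4 kinases was 54.6 ± 1.67 in floxed and 59.5 ± 1.12 in LKO males, and 48.2 ± 3.01 in floxed and 40.5 ± 2.49 in LKO females (SD, n = 4 each).

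**Figure D2:**
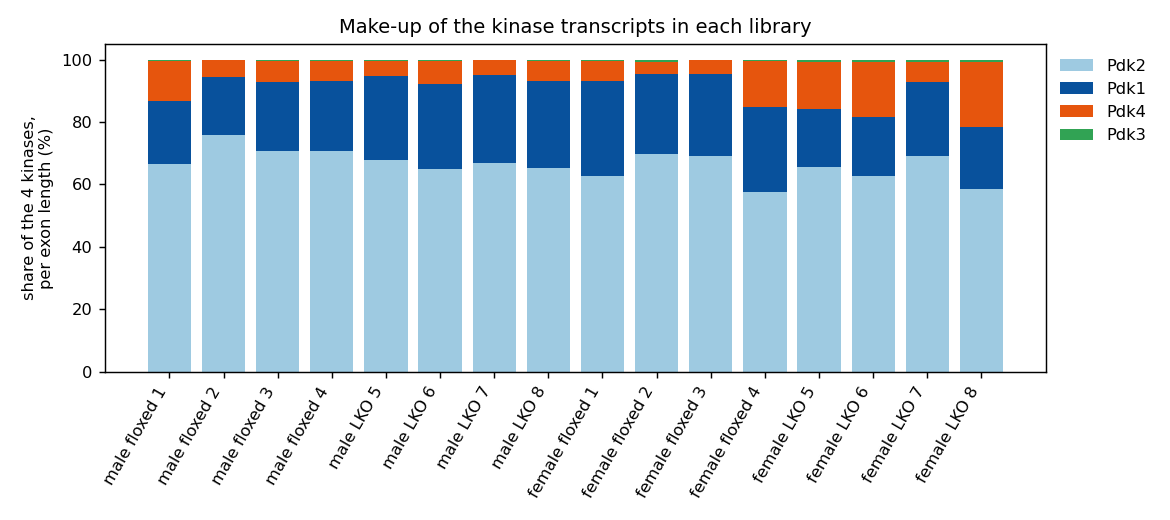
Share of each kinase in the summed RPKM of Pdk1, Pdk2, Pdk3 and Pdk4 in each of the 16 libraries (percent, stacked bars). As group means (n = 4, not drawn), Pdk2 takes 64.0 to 70.9% in the 4 groups. The mean share of Pdk1 is 27.7% in LKO males and 27.4% in floxed females, against 20.8% in floxed males and 20.3% in LKO females.

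The 4 subunit genes of the complex were each higher in every LKO male than in every floxed male, and none of the 4 passed the test with Benjamini-Hochberg adjustment over all genes. Of the 9 genes tested in males, 4 had groups that did not overlap with the LKO group higher and 0 with it lower, where 3.81% of all genes had the first, 4.03% the second and 7.84% either. The edgeR test called 0 of the 9 at an adjusted p under 0.05, with 3 at an unadjusted p under 0.05, and called 1.04% of all genes, 0.528% higher and 0.514% lower. DESeq2 called 2 of the 9, Dlat and Pdha1, and 3.44% of all genes. The median log2 fold change of the 4 subunits in males was 0.19, against -0.01 for all genes tested.

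Dlat (ENSMUSG00000000168; chromosome 9, 50634633 to 50659780, minus strand), which encodes the E2 acetyltransferase at the core of the complex, had the smallest p in males. It measured 55.1, 50.9, 52.7 and 50.5 CPM in floxed and 62.2, 64.7, 61.1 and 63.3 CPM in LKO males, with a gap between the groups wider than the spread within either. Its log2 fold change in males was 0.26 (SE 0.05, edgeR adjusted p = 0.0544). DESeq2 (adjusted p = 0.000618), limma-voom (0.0469), robust dispersion in edgeR (0.0462) and a filter of 1 CPM in 4 libraries (0.048) put Dlat past the threshold. Over all alternatives other than leaving out 1 library the adjusted p of Dlat in males ran up to 0.161.

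Pdha1 (ENSMUSG00000031299; X chromosome, 160122209 to 160138413, minus strand) encodes the E1 alpha subunit that the kinases phosphorylate. It measured 182, 196, 196 and 189 CPM in floxed and 209, 227, 220 and 208 CPM in LKO males, which was 0.18 as a log2 fold change (SE 0.05, edgeR adjusted p = 0.185). In females it measured 146, 150, 146 and 136 CPM in floxed and 129, 113, 116 and 143 CPM in LKO livers. The LKO females lay lower except number 8, whose level fell inside the floxed range, and the log2 fold change was -0.21 (SE 0.09, edgeR adjusted p = 0.165). The exons of Pdha1 share 603 bases with Map3k15 on the opposite strand, and the strand setting of the counting is not given in the sources used here. Map3k15 had at most 178 counts in any library, against at least 3546 for Pdha1.

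Pdhb (ENSMUSG00000021748; chromosome 14, 8165996 to 8173025, minus strand), which encodes the E1 beta subunit, went the same way as Pdha1 in the means. It measured 112, 132, 123 and 128 CPM in floxed and 147, 145, 144 and 134 CPM in LKO males, which was 0.20 as a log2 fold change (SE 0.06, edgeR adjusted p = 0.209). Floxed females measured 118, 137, 128 and 128 CPM and LKO females 98.2, 100.5, 115 and 118 CPM, with the lowest floxed and the highest LKO library almost at the same level. The log2 fold change in females was -0.25 (SE 0.09, edgeR adjusted p = 0.102), and it passed the test in the fit of 16 libraries (edgeR adjusted p = 0.0349).

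Pdhx (ENSMUSG00000010914; chromosome 2, 103021075 to 103073513, minus strand) encodes the protein that holds the E3 enzyme to the core. It measured 25.0 to 32.0 CPM in floxed and 32.3 to 34.9 CPM in LKO males, which was 0.16 as a log2 fold change (SE 0.08, edgeR adjusted p = 0.478). Male floxed 1 was the low library, and without it the log2 fold change was 0.08. In females Pdhx (log2 fold change -0.07, SE 0.08, edgeR adjusted p = 0.612) and Dlat (-0.05, SE 0.09, edgeR adjusted p = 0.737) had overlapping groups.

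The phosphatase Pdp2 (ENSMUSG00000048371; chromosome 8, 104591451 to 104599026, plus strand) was lower in every LKO female than in every floxed female. It measured 72.2, 66.9, 62.1 and 61.2 CPM in floxed and 47.7, 58.2, 59.1 and 46.6 CPM in LKO females. Its log2 fold change was -0.31 (SE 0.10, edgeR adjusted p = 0.0754), and it passed the test with DESeq2 (adjusted p = 0.0426), without female LKO 7 (edgeR adjusted p = 0.0419) and without female floxed 4 and female LKO 7 together (edgeR adjusted p = 0.0361). In males the groups overlapped and the log2 fold change was -0.01 (SE 0.11, edgeR adjusted p = 0.986). Male floxed 3, at 68.2 CPM, stood above the other floxed males at 49.7 to 52.7 CPM.

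Pdp1 (ENSMUSG00000049225; chromosome 4, 11958184 to 11966452, minus strand), the other phosphatase and the form known from muscle, was rare in liver. It measured 1.08 to 1.37 CPM in floxed and 0.610 to 1.29 CPM in LKO males, and 1.25 to 1.82 CPM in floxed and 1.68 to 2.71 CPM in LKO females, and the groups of each sex overlapped. The log2 fold change was -0.42 (SE 0.24, edgeR adjusted p = 0.541) in males and 0.35 (SE 0.21, edgeR adjusted p = 0.307) in females, from 21 to 85 counts per library. Per exon length Pdp2 stood at 9.71 RPKM in floxed males and Pdp1 at 0.266 RPKM.

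In females the edgeR test called 0 of the 9 genes, with 4 at an unadjusted p under 0.05, and called 9.29% of all genes, 4.44% higher and 4.85% lower. DESeq2 called 1 of the 9, Pdp2, and 15.7% of all genes. Groups that did not overlap were found for 1 of the 9, with the LKO group lower, against 7.83% of all genes with the LKO group lower, 7.79% with it higher and 15.6% in either direction. Without female floxed 4 this count was 4, where 27.2% of all genes had groups that did not overlap. Without female LKO 8 it was 4, against 19.3% of all genes, and it was 2 without female floxed 1 (19.1%) or female floxed 2 (18.3%). Without female floxed 4 and female LKO 7 together it was 5, against 38.2% of all genes. Without that pair the edgeR test called 3 of the 9, Pdk2, Pdk4 and Pdp2, and 19.6% of all genes. The median log2 fold change of the 4 subunits in females was -0.14, against 0.00 for all genes tested.

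**Figure D3:**
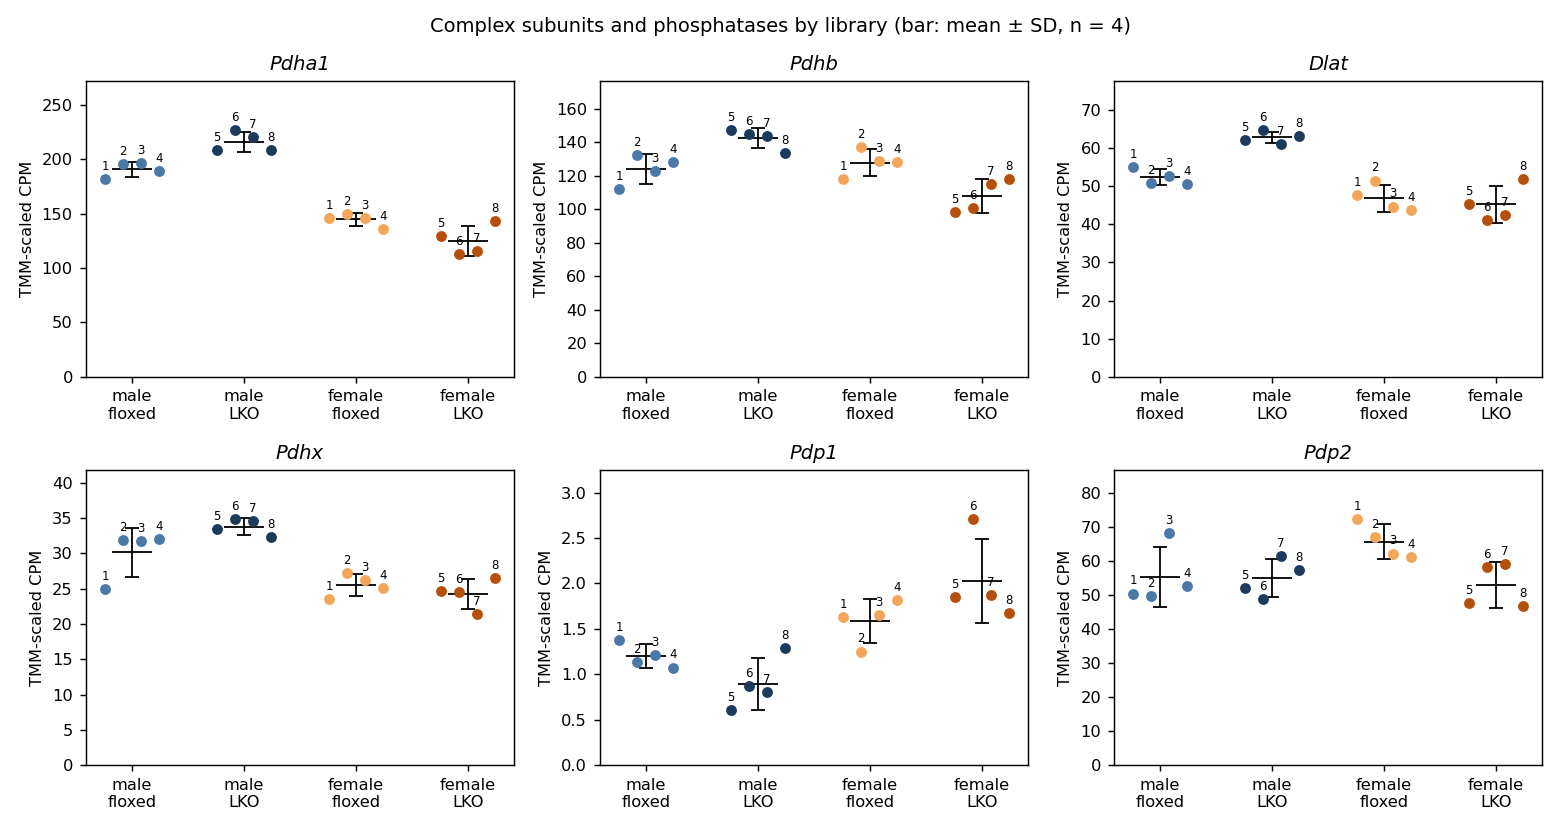
TMM-scaled CPM of the 4 subunit genes and the 2 phosphatase genes in each library (points, labelled with the replicate number), with the mean and SD of each group (bars, n = 4). The LKO males lie above the floxed males for Pdha1, Pdhb, Dlat and Pdhx, and the LKO females lie below the floxed females for Pdp2.

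Averaged over both sexes, the knockout effect on Pdk1 was -0.08 on the log2 scale (SE 0.06, edgeR adjusted p = 0.44). This contrast is not the difference by which Pdk1 was chosen, but it uses the same 16 libraries and is not fully independent of it. The edgeR test called 0 of the 10 genes, 0 at an unadjusted p under 0.05 as well, and called 8.55% of all genes, 4.05% higher and 4.5% lower. DESeq2 called 0 of the 10 and 13.2% of all genes, and limma-voom called 0 of the 10 and 8.3% of all genes. The smallest adjusted p belonged to Pdk2, with -0.13 (SE 0.06, edgeR adjusted p = 0.211), Dlat, with 0.11 (SE 0.05, edgeR adjusted p = 0.216), and Pdp2, with -0.16 (SE 0.08, edgeR adjusted p = 0.219). Without female floxed 4 and female LKO 7 together 2 of the 10 and 17.8% of all genes were called, Pdk4 at 0.66 (SE 0.19, edgeR adjusted p = 0.0251) and Pdk2 at -0.17 (SE 0.06, edgeR adjusted p = 0.0485).

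The difference of the effects, female minus male on the log2 scale, is described with no test, because Pdk1 was chosen by it. It was -1.23 (SE 0.12) for Pdk1, -0.30 (SE 0.12) for Pdk2, 0.46 (SE 0.46) for Pdk3 and 1.13 (SE 0.56) for Pdk4. Among the subunits it was -0.39 (SE 0.10) for Pdha1, -0.45 (SE 0.11) for Pdhb, -0.32 (SE 0.10) for Dlat and -0.24 (SE 0.12) for Pdhx. The phosphatases had 0.77 (SE 0.31) for Pdp1 and -0.30 (SE 0.16) for Pdp2. At an adjusted p under 0.05 this contrast holds 4.42% of all genes, 1.97% higher and 2.45% lower, and 3 of the 10, Pdk1, Pdha1 and Pdhb. The place of Pdk1 among them was fixed by the choice, and nothing is read from the count. This contrast uses the same 16 libraries as the effects within each sex, so the values stand side by side and are not independent of them.

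**Figure D4:**
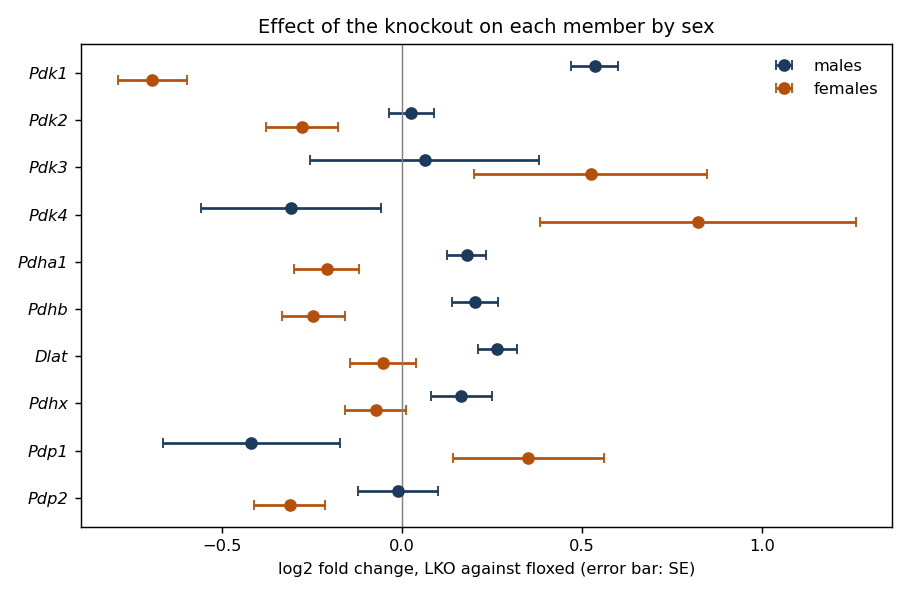
Log2 fold change of LKO against floxed livers for each of the 10 genes (points, error bars SE) in males and in females, from edgeR fits of 8 libraries each. Pdk1 stands at 0.53 in males and -0.69 in females, and Pdk4, Pdk3 and Pdp1 have the widest errors.

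The floxed livers of the sexes were set side by side as the baseline of each effect, where sex and count table cannot be told apart. Pdha1 was lower in floxed females, with a log2 difference of -0.40 (SE 0.07, edgeR adjusted p = 0.00109) and no overlap, and the call held without any 1 library (edgeR adjusted p at most 0.00462). Pdk2 was lower in floxed females by -0.31 (SE 0.09, edgeR adjusted p = 0.0167), with overlapping groups. The Pdk2 call was lost without male floxed 2 (edgeR adjusted p = 0.0553) and without male floxed 1 and 2 together (edgeR adjusted p = 0.0746). These were 2 of the 9 genes tested, where the test called 22.9% of all genes, 11.3% higher and 11.6% lower in females, and 1 of the 9 had groups that did not overlap, where 24.1% of all genes did and 12.5% with the females lower.

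Pdhx missed the threshold in this comparison (-0.24, SE 0.08, edgeR adjusted p = 0.0511) and passed it without male floxed 1 (-0.33, edgeR adjusted p = 0.00576). Pdp2 passed it without male floxed 3 (0.36, SE 0.10, edgeR adjusted p = 0.0222). Pdk4 was at -0.31 (SE 0.39, edgeR adjusted p = 0.61) with all libraries and at -0.84 (SE 0.27, edgeR adjusted p = 0.0414) without female floxed 4 and female LKO 7. The log2 difference of Pdk1 was 0.22 (SE 0.08), a description, with overlapping groups.

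The genes whose levels ran most like those of Pdk1 were sought among 10887 genes over the 16 libraries, by the root mean square difference of log2 CPM after centring each gene. The closest were Acad10 (0.17), an acyl-CoA dehydrogenase family member, Hadh (0.18) of mitochondrial beta-oxidation, Dut (0.18), the dUTPase, Aldh3a2 (0.18), a fatty aldehyde dehydrogenase, and Idh1 (0.18), the cytosolic isocitrate dehydrogenase. The root mean square of Pdk1 about its own mean was 0.38. In the means of the 4 groups Acad10 measured 46.9 and 53.9 CPM in floxed and LKO males and 46.9 and 28.2 CPM in floxed and LKO females. For Pdk4, whose own root mean square was 0.64, the closest were Nupr1 (0.32), a stress-induced transcriptional regulator, St5 (0.36), Tnfrsf12a (0.38), the receptor of TWEAK, Insc (0.39) and Leng9 (0.40). These libraries share sex, table and genotype, and the likeness is a description.

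The remaining genes that the complex needs were counted as well. The 6 tested genes were Dld, the phosphatase regulatory subunit Pdpr, and Lias, Lipt1, Lipt2 and Nfu1 for the lipoylation of E2. Of these 0 were called in males (median log2 fold change 0.06) and 0 in females (median -0.18). Of all genes 1.04% were called in males and 9.29% in females, so nothing is read from 0 of 6. Dld, the E3 dihydrolipoamide dehydrogenase, had 0.07 (SE 0.06, edgeR adjusted p = 0.684) in males and -0.25 (SE 0.09, edgeR adjusted p = 0.11) in females. Pdha2, the testis form of E1 alpha, was listed in neither table. Of the 8 tested genes of the related 2-oxoacid dehydrogenase complexes, 0 were called in males, where 1.04% of all genes were. In females, where 4.85% of all genes fell, 1 of the 8 fell, Dbt (-0.67, SE 0.14, edgeR adjusted p = 0.0215), the E2 of the branched-chain complex. Dbt went from 91.1 ± 16.5 to 57.2 ± 8.05 CPM in females (SD, n = 4 each), and its call was lost without any 1 library other than female floxed 4 and female LKO 7 (edgeR adjusted p up to 0.0682).

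A list of 17 genes covered the supply, transport and other fates of pyruvate, together with genes of citrate and acetate use such as Acly and Acss2. Of the 17, 3 rose and 0 fell in males, where 1.04% of all genes were called, with a median log2 fold change of 0.07. Pklr, the liver pyruvate kinase, rose from 242 ± 23.3 to 495 ± 29.4 CPM (log2 fold change 1.03, SE 0.08, edgeR adjusted p = 0.000408), and Me1, the malic enzyme, from 154 ± 14.8 to 232 ± 12.5 CPM (0.59, SE 0.08, edgeR adjusted p = 0.00567; SD, n = 4). Both genes stayed past the threshold whichever of the 8 libraries was left out. Acly, the ATP citrate lyase, rose by 0.40 (SE 0.08, edgeR adjusted p = 0.046), a call lost in the fit of 16 libraries (edgeR adjusted p = 0.316) and without any 1 library other than male floxed 2 (up to 0.139).

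In females 3 of the 17 fell and 1 rose, where 9.29% of all genes were called, with a median of -0.23. Acss2, which makes acetyl-CoA from acetate, fell from 78.5 ± 13.1 to 42.4 ± 6.40 CPM (log2 fold change -0.89, SE 0.14, edgeR adjusted p = 0.00767; SD, n = 4) and kept its call without any 1 library. Acly fell by 0.88 on the log2 scale (SE 0.17, edgeR adjusted p = 0.0167), a call lost without female floxed 1 or female LKO 5 (up to 0.0541). Pklr fell by 0.85 (SE 0.19, edgeR adjusted p = 0.0256), lost without female floxed 1 or 3 or female LKO 5, 6 or 8 (up to 0.0781). Slc16a1, a monocarboxylate carrier of pyruvate and lactate, rose by 0.90 (SE 0.20, edgeR adjusted p = 0.0249), lost without female floxed 1 or 2 or female LKO 6 (up to 0.0786).

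For the citric acid cycle, which takes up the product of the complex, 0 of 17 genes were called in males, where 1.04% of all genes were. All 17 log2 fold changes were above 0 in males, with a median of 0.09 against -0.01 for all genes tested. In females 3 of 17 fell and 1 rose, with a median of -0.19, where 4.85% of all genes fell and 4.44% rose. Fh1, the fumarase, rose from 185 ± 21.3 to 357 ± 84.7 CPM (log2 fold change 0.94, SE 0.17, edgeR adjusted p = 0.0118), and Aco1, the cytosolic aconitase, fell from 223 ± 24.1 to 155 ± 9.01 CPM (-0.52, SE 0.09, edgeR adjusted p = 0.012; SD, n = 4). Both kept their calls without any 1 library. Idh2 (-0.54, edgeR adjusted p = 0.0217) lost its call without female floxed 1 or 2, and Suclg2 (-0.39, edgeR adjusted p = 0.0311) without any 1 library other than female floxed 4 and female LKO 7. Without female floxed 4, 6.21% of all genes fell in females. The genes that fell then numbered 6 of 17 here, 4 of 17 in the list around pyruvate and 3 of 8 in the related complexes. In the same order they numbered 6, 5 and 4 in the fit of 16 libraries, where 9.1% of all genes fell. Without female floxed 1 they numbered 1, 1 and 0, where 1.3% of all genes fell.

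Lists of genes under the regulators for which Pdk1 and Pdk4 are known were also counted. Of the HIF-1 targets other than Pdk1, 0 of 26 were called in males (median 0.06), where 1.04% of all genes were. In females, where 4.85% of all genes fell, 1 of 27 fell (median 0.05), Vegfa (-0.48, SE 0.10, edgeR adjusted p = 0.024), the endothelial growth factor. Vegfa lost its call without female floxed 1 or 2 or female LKO 5, 6 or 8 (edgeR adjusted p up to 0.0744). With DESeq2 4 of the HIF-1 targets rose in females and 2 in males, where 7.75% and 1.87% of all genes rose. In females 4 also rose in the fit of 16 libraries, where 8.6% of all genes rose. Without female floxed 4 and female LKO 7 together 4 rose and 2 fell, where 9.79% of all genes rose and 9.79% fell. In females 2 rose without female floxed 4 alone (6.65% of all genes rose) and 2 without female LKO 7 alone (6.88%). In males 1 rose without male floxed 1 and 2 together (0.784% of all genes rose) and without male floxed 1 alone (0.476%). Eno1 (0.29, SE 0.06, edgeR adjusted p = 0.0763) and Slc2a1 (-0.30, SE 0.08, edgeR adjusted p = 0.156), both glycolytic targets, had the smallest p in males.

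Of 18 PPAR alpha and fasting targets other than Pdk4, 0 were called in males (median 0.09), where 1.04% of all genes were. In females, where 4.44% of all genes rose, 2 of the 18 rose (median -0.08). These were Angptl4, an inhibitor of lipoprotein lipase (0.55, SE 0.12, edgeR adjusted p = 0.0277), and Creb3l3, a hepatic transcription factor (0.38, SE 0.09, edgeR adjusted p = 0.0351). The call of Angptl4 was lost in the fit of 16 libraries (edgeR adjusted p = 0.0982) and without female floxed 1 or 3 or female LKO 5, 6 or 8 (up to 0.0832), and that of Creb3l3 without any 1 library other than female floxed 4 and female LKO 7 (up to 0.111). With DESeq2, where 7.75% of all genes rose, and without female floxed 4 and female LKO 7 together, where 9.79% rose, 4 of the 18 rose in females. Fgf21, a fasting hormone, had 1.99 (SE 0.57, edgeR adjusted p = 0.0563) in females. Between floxed livers 8 of the 18 were higher in females and 0 lower, with a median of 0.41. Of all genes 11.3% were higher in floxed females and 11.6% lower.

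Of 20 genes controlled by FOXO1, glucocorticoids or insulin, 0 were called in males (median -0.01), and 4 rose and 1 fell in females (median 0.15). Of all genes 1.04% were called in males, and 4.44% rose and 4.85% fell in females. Igfbp1, an insulin-repressed binding protein, rose from 79.7 ± 20.8 to 784 ± 648 CPM (log2 fold change 3.30, SE 0.56, edgeR adjusted p = 0.0101; SD, n = 4), and the LKO females ran from 195 to 1694 CPM. Srebf1, which insulin raises and which drives lipogenesis, fell from 173 ± 34.3 to 57.8 ± 18.2 CPM (-1.58, SE 0.24, edgeR adjusted p = 0.00745; SD, n = 4). Both kept their calls without any 1 library. Pck1, the gluconeogenic PEP carboxykinase (0.77, SE 0.18, edgeR adjusted p = 0.0278), and Tat, tyrosine aminotransferase (1.30, SE 0.32, edgeR adjusted p = 0.0336), each lost the call without 6 of the 8 libraries and kept it without female LKO 7 (up to 0.0788 and 0.0954). Pck1 also kept it without female floxed 4 and Tat without female floxed 3. The fourth gene that rose, Ppargc1a, kept its call without 1 of the 8 libraries, female LKO 7 (up to 0.126), and lost it with limma-voom (adjusted p = 0.0823) and robust dispersion (0.0699).

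**Figure D5:**
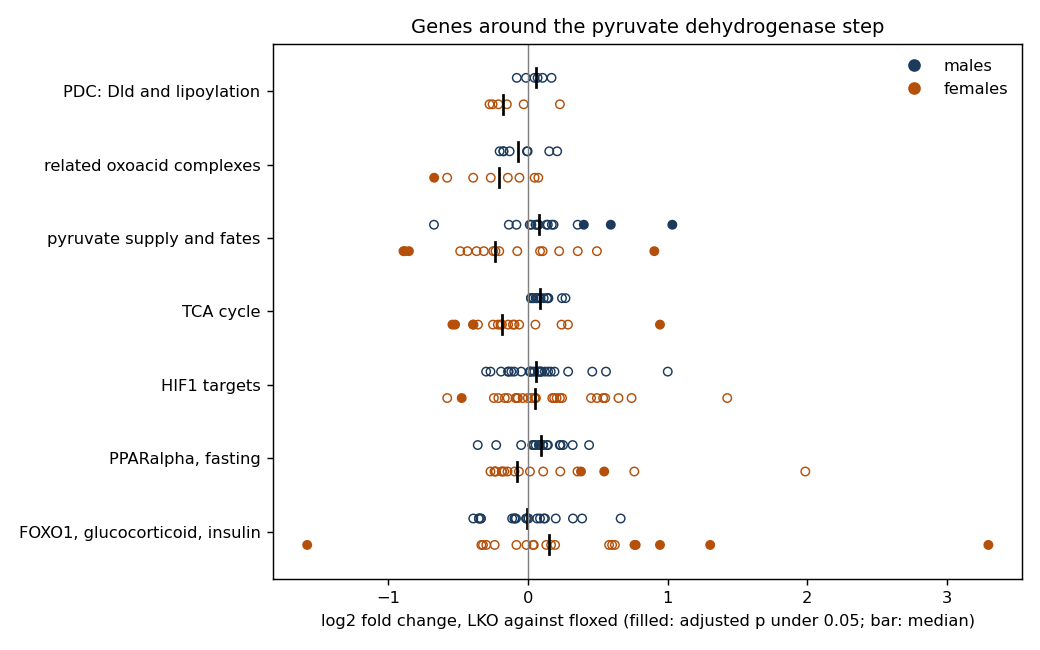
Log2 fold change of LKO against floxed livers for every tested gene of the 7 lists around the pyruvate dehydrogenase step, in males and females (points, filled where the edgeR adjusted p is under 0.05), with the median of each list (bars). Igfbp1 at 3.30 and Srebf1 at -1.58 in females are the outermost points, and no citric acid cycle gene is filled in males.

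With the sexes averaged, 12 of the 112 tested genes of these lists were called (10.7%), against 8.55% of all genes. Fh1 rose (0.52, SE 0.10, edgeR adjusted p = 0.00723), Dbt (-0.44, SE 0.09, edgeR adjusted p = 0.00915) and Acss2 (-0.42, SE 0.09, edgeR adjusted p = 0.00799) fell, Vegfa fell (-0.33, SE 0.08, edgeR adjusted p = 0.0144), and Igfbp1 rose (1.75, SE 0.36, edgeR adjusted p = 0.0085) while Srebf1 fell (-0.63, SE 0.15, edgeR adjusted p = 0.0145). All 6 stayed past the threshold whichever of the 16 libraries was left out. The call of 6 further genes was lost without at least 1 library. Slc16a1 and G6pc, the glucose-6-phosphatase, rose and Aco1 fell, and these kept their calls without 9, 14 and 11 of the 16 libraries in turn. Creb3l3, Cpt1a (carnitine palmitoyltransferase) and Fgf21 rose and kept theirs without 6, 5 and 4. The averaged effects share their libraries with the effects within each sex.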

How the data were processed

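Liver RNA of 16 mice, 4 in each of 4 groups taken from the labels, was sequenced from directional poly(A) libraries, per the labels' protocols. The authors deposited raw counts per Ensembl gene, 1 table per sex with 8 libraries each. Per the submitters' processing notes the genome build was mm10. Which aligner, counting program and strand setting made the counts is not given in the sources used here. These deposited counts were used as given. Symbols, positions and exon lengths came from a reference annotation of the same build, and 26 identifiers in males and 28 in females had no symbol.

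Tests used edgeR 4.0.16 (glmQLFit and glmQLFTest, R 4.3.3) after filterByExpr, whose count minimum was 10 and total minimum 15, and TMM scaling. They were two-sided, with Benjamini-Hochberg adjustment over all genes tested and a threshold of 0.05. Each sex was fitted alone. A fit of 16 libraries over shared identifiers gave the averaged effect, the difference of the effects and floxed females against floxed males. CPM were TMM-scaled over the 16 libraries, and log2 CPM used a prior count of 2. Precision is that of 4 animals a group, and libraries of a group were checked for copies, of which there were 0.

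The members and the gene lists were chosen with earlier results of these data known. All 10 members are described, and up to 4 genes with the smallest p are named for each list. Alternatives were DESeq2 1.42.0, limma-voom (limma 3.58.1), other scalings and filters, robust dispersion, the 16-library fit, a replicate block, and omission of single libraries or pairs. Promoters are from RefSeq. Procedures were tested on simulated counts.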

Additional observations from a re-analysis of the deposited data

Results flagged for a closer look

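Male floxed 1 measured 24.3 CPM of Pdk4 and 25.0 CPM of Pdhx, the first above and the second below the other floxed males by a gap that passes Dixon's 95% critical value. Male floxed 3 measured 68.2 CPM of Pdp2 and stood above the other floxed males by the same criterion. Chance passes about 1 in 20 groups, and 10 genes in 4 groups were examined.

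In the difference of the knockout effects, female minus male on the log2 scale, 3 of the 10 genes had an edgeR adjusted p under 0.05. These were Pdk1 at -1.23, Pdha1 at -0.39 and Pdhb at -0.45, where 4.42% of all genes had such a p. Pdk1 and with it the set were chosen by this contrast, so this fixed the place of Pdk1. The values stand as a description, and nothing is read from the count.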

How the results depend on the processing

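Genes called in males numbered 160, and 518 with DESeq2, 97 in the 16-library fit and 69 to 179 when 1 library was left out. In females they numbered 1433, and 2415 with DESeq2, 2854 in the 16-library fit, 3028 without female floxed 4 and female LKO 7, and 396 to 2300 when 1 library was left out. For the averaged effect they numbered 1379, and 2902 without that female pair and 788 to 2252 when 1 library was left out. For the difference of the effects they numbered 713, and 1358 with DESeq2, 243 without male floxed 1 and 2, 2030 without the female pair and 407 to 1435 when 1 library was left out. Members called went from 0 in males to 2 with DESeq2 and to 1 each with limma-voom, the 1 CPM filter and robust dispersion. Of all genes these settings called 3.44%, 1.01%, 1.17% and 1.11% in turn, against 1.04%. In females the members called went from 0 to 1 with DESeq2, 2 in the 16-library fit and 3 without the female pair. Of all genes 15.7%, 17.7% and 19.6% were called in turn, against 9.29%. When 1 library was left out, 0 to 2 members and 2.53% to 14.7% of all genes were called in females. For the averaged effect the members called went from 0 to 2 without the female pair, where the share of all genes went from 8.55% to 17.8%. For the difference of the effects they went from 3 to 1 without male floxed 1 and 2 and to 5 without the female pair. The share of all genes there went from 4.42% to 1.45% and 12.5%. When 1 library was left out, 1 to 4 members and 2.49% to 8.77% of all genes were called for that difference. Between floxed livers the members called were 1 to 3 when 1 library was left out, against 2. The share of all genes ran from 17.5% to 23.9% there, against 22.9%. Members whose female groups did not overlap numbered 1, where 15.6% of all genes had such groups. They went to 2 with upper quartile scaling (15.6% of all genes) and to 5 without the female pair (38.2%). With library totals they went to 4, where 12.9% of all genes had the LKO group lower and 4.03% had it higher. When 1 library was left out they ran from 1 to 4, where 18.3% to 27.2% of all genes had such groups. The cause of these shifts was not tested.

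Direction changed for small effects. Without male floxed 1 and 2, Pdk3 in males was -0.026 and the averaged Pdp1 0.0012, and without the female pair the averaged Pdp1 was 0.026. With 1 library left out, the log2 fold change in males ran from -0.011 to 0.075 for Pdk2, -0.14 to 0.20 for Pdk3, -0.46 to 0.019 for Pdk4 and -0.069 to 0.11 for Pdp2. The averaged effect ran from -0.048 to 0.0085 for Pdha1 and -0.15 to 0.041 for Pdp1, and floxed females against floxed males from -0.19 to 0.35 for Pdk3, -0.84 to 0.0089 for Pdk4 and -0.0053 to 0.079 for Pdhb. With the replicate number of the labels as a replicate block, the difference of the effects called 468 genes (2.9% of all) and 1 member. Same-numbered libraries of the sexes come from different mice, their deviations correlated between -0.12 and 0.13, and 2 of 8 libraries correlated best with their own number, so the numbers were not taken as pairs. With the longest coding transcript as the length, Pdk1 made up 22.4, 29.4, 29.3 and 22.2% of the kinases in floxed males, LKO males, floxed females and LKO females. Depth limits Pdk3 and Pdp1, with 10 to 85 counts per library.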
